A study of Sus scrofa with 4 samples.

Results

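The extracellular matrix genes described here encode collagens, laminins, integrins, fibronectin, fibrillins and tenascin C, and the enzymes that cut or crosslink the matrix. They were examined for peaks of H4K12la, the lactylation of lysine 12 on histone H4, a modification whose acyl group derives from lactate. They were chosen by symbol among the protein-coding genes of the pig RefSeq annotation (Sscrofa11.1), and 131 genes matched. COL6A2 lies on unplaced sequence and was not analysed, which left 130 of the 16303 coding genes with a symbol on chromosomes 1 to 18, X and Y. Livers came from female sows in late gestation, labelled as a high bile acid group (HBA) and a low bile acid group (LBA, called normal in the series design), and the stated purpose was to find genes targeted by the mark. Each group had 1 library immunoprecipitated with an antibody to H4K12la and 1 input library, 4 samples in all, from formaldehyde-fixed cells labelled hepatocytes. The labels do not say whether a library came from a single animal or a pool. Since neither group was replicated, differences between the livers have no replicate check, and they are given without p-values.

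Collagens are the fibres and sheets of the matrix, and laminins build the basement membrane together with type IV collagen. Integrins are paired alpha and beta chains by which cells hold these proteins and receive signals from them. Matrix metalloproteinases (MMP) and ADAMTS proteases trim or degrade matrix, TIMPs inhibit them, and lysyl oxidases (LOX and the LOXL enzymes) crosslink collagen and elastin. In liver, stellate cells, portal fibroblasts and sinusoidal endothelial cells are known as the main sources of many of these proteins, and the build-up of matrix is fibrosis, which can follow long cholestasis. A peak of a histone mark is no measure of RNA or protein.

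The 2 peak lists, as deposited, held 28283 peaks in the high bile acid liver and 5735 in the low bile acid liver. A difference of calls between lists of such unequal length is not a tested difference in occupancy. The fold, p and q given for peaks are the authors' own values at the summit, over the pileup expected there in the same list. Within 10 kb of members, q was under 0.05 at 5 of 286 HBA peaks and at none of 57 LBA peaks, also where no q is printed. The annotation used has gene coordinates but neither strand nor exons. A gene-end peak therefore means a summit no more than 1 kb from one of the ends of the gene, inside or outside it, which may be the start site or the transcript end. A body peak has its summit inside the gene, exon or intron. Fragment numbers at summits were solved from fold and p, and their 95% Poisson intervals cover counting error only. LBA fragment numbers are given before the caller's scaling by 0.881.

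Most matrix genes carried H4K12la peaks inside the gene in the high bile acid liver, and few carried one at a gene end. Body peaks were called in 88 of the 130 genes in the HBA list (67.7%, 95% interval 58.9 to 75.6%), where the share of all coding genes was 44.5%, and in 30 in the LBA list (23.1%, 16.1 to 31.3%), where it was 14.9%. Matrix genes are long, with a median of 70.1 kb against 25.6 kb for all coding genes. When coding genes were split by length into 10 classes of equal size and each member took the share of its own class, 76.0 genes would have had a body peak in the HBA list and 31.9 in the LBA list. Against genes of like length, the share of members differed by 9.26 percentage points in the HBA list and by -1.48 points in the LBA list. Gene-end peaks were called in 22 members in the HBA list (16.9%, 10.9 to 24.5%), near the background of 16.5%, and in 3 in the LBA list (2.31%, 0.478 to 6.60%), near the background of 3.13%. Counting 10 kb beyond each gene, 101 members had a peak in the HBA list (background 62.5%) and 41 in the LBA list (background 21.9%). At like length the numbers would have been 91.3 and 39.3. When the HBA list was limited to its 5735 peaks of smallest p, as many as the LBA list holds, 9 members had a gene-end peak, 35 a body peak and 44 a peak within 10 kb, against 3, 30 and 41 in the LBA list. The shares of all coding genes in that shortened HBA list were 4.64%, 15.8% and 23.9%, which come to 5.72, 30.5 and 38.5 genes at like length.

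**Figure D1:**
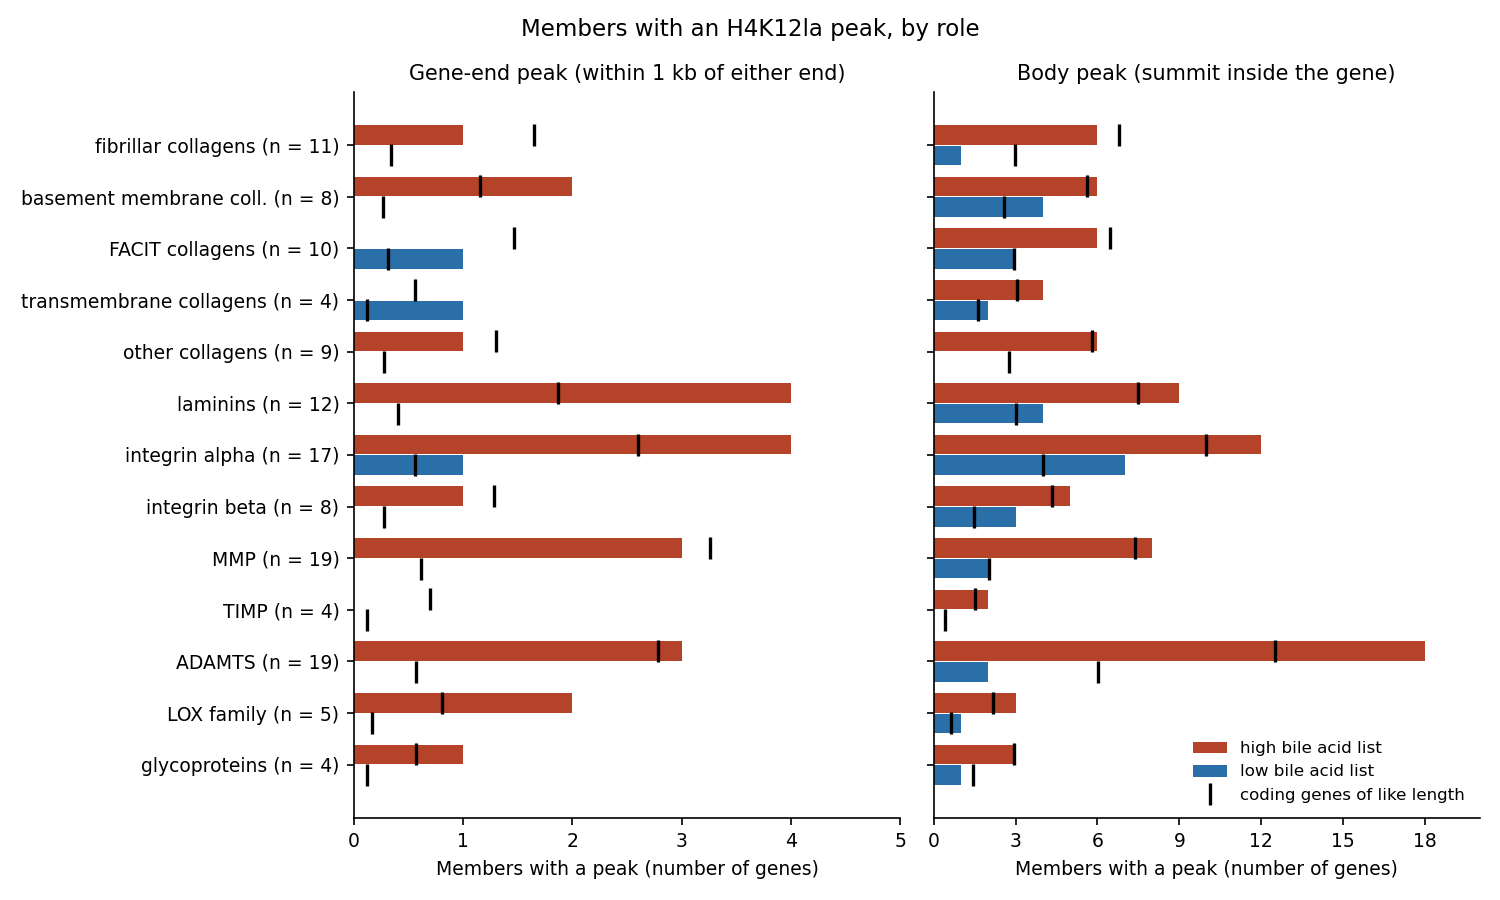
Number of genes (x axis) in each role (y axis, with the number of members) that had a gene-end peak (left) or a body peak (right), in the HBA list (red) above the LBA list (blue). Black ticks give the number reached if each gene had the share of coding genes of its own length class; in the HBA list 18 of 19 ADAMTS genes had a body peak, against a tick at 12.5.

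Per base of gene, the mark was called at much the same density as elsewhere. Members held 227 body summits in 14.2 Mb in the HBA list, or 15.9 per Mb (95% interval 13.9 to 18.2), against 14.6 per Mb in all coding genes. In the LBA list they held 41, or 2.88 per Mb (2.07 to 3.91), against 2.88 per Mb. Their body peaks were also of like height, with a median fold of 2.89 in the HBA list and 3.02 in the LBA list, against 2.89 and 2.98 for the body peaks of all coding genes. Peaks within 10 kb of a member rested on 6 to 15 fragments in the HBA list and 8 to 15 in the LBA list. Of these, 5 of 286 had q under 0.05 in the HBA list (1.75%), near the 2.15% of all HBA peaks, and 0 of 57 did in the LBA list, where 0.227% of all peaks did. Of the gene-end peaks of members in the HBA list, 3 of 25 did (12%, 95% interval 2.55 to 31.2%), against 4.11% of those of all coding genes. The 5 lay in or beside LOXL4, MMP28, MMP11, ITGAE and ADAMTS9.

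**Figure D2:**
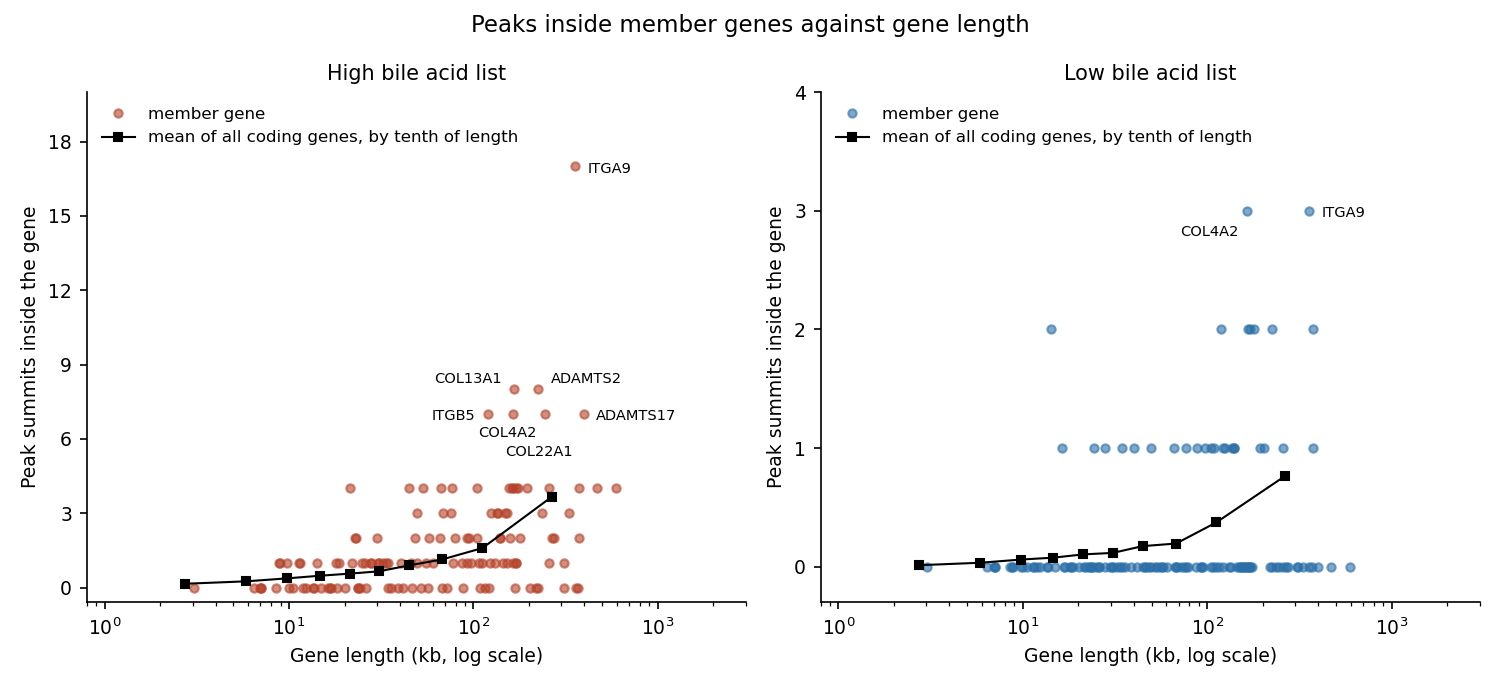
Number of peak summits inside each of the 130 genes (y axis) against gene length in kb (x axis, log scale), in the HBA list (left) and the LBA list (right). The black line joins the means of all coding genes in 10 length classes, which reach 3.66 summits in the longest class in the HBA list and 0.767 in the LBA list; ITGA9 stands highest in the HBA list with 17 summits, and shares the top of the LBA list with COL4A2 at 3.

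Fibrillar collagens, which form the fibres of scar and connective tissue, held 9.25 body summits per Mb in the HBA list (95% interval 4.93 to 15.8). In the LBA list they held 0.712 (0.0180 to 3.97), from 1 summit. All coding genes held 14.6 and 2.88 per Mb, and those over 300 kb held 9.37 and 1.90. COL5A2 and COL24A1, of 369 and 331 kb, make up much of the fibrillar length of 1.41 Mb. COL5A2 held 0 HBA body summits and COL24A1 held 3, where coding genes of their length class averaged 3.66. The part of gene length in the fibrillar density was not tested. Of 11 genes, 6 had a body peak in the HBA list and 1 in the LBA list, COL11A1, against 6.78 and 2.97 at like length. COL1A1, which encodes the main chain of type I collagen, had 1 HBA peak inside the gene, at chromosome 12, 26390225 to 26390638, of fold 2.82 (q 0.33) on 9 fragments over 2.55 expected. COL1A2, its partner chain, had 1 HBA peak 2701 bp outside the gene, of fold 2.84 (q 0.33). Neither had an LBA peak within 10 kb. COL3A1, which encodes the type III collagen chain of young scar, lacked any peak within 10 kb in both livers, as did its neighbour COL5A2, and COL5A3. COL5A1 was the fibrillar collagen with a gene-end peak, at a summit 713 bp beyond the gene, of fold 2.08 (q 0.711) in the HBA list. It also had 3 HBA body peaks, of fold up to 3.17.

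Basement membrane collagens had body peaks in both livers. Of the 8 genes of types IV, XV and XVIII, 6 had a body peak in the HBA list and 4 in the LBA list, against 5.60 and 2.59 at like length. COL4A2 held 7 body peaks in the HBA list, of fold 2.45 to 3.45, and 3 in the LBA list, of fold 2.59 to 3.38, against means of 3.66 and 0.767 for coding genes of its length. COL4A1, which lies next to it and encodes the chain with which its product assembles, held 2 in the HBA list, of fold 3.55 and 2.60, and 1 in the LBA list, of fold 2.46. The LBA peak of COL4A1, at chromosome 11, 76881249 to 76881547, lay between its HBA peaks at 76877999 to 76878299 and 76883279 to 76883760 and overlapped neither. The 2 genes overlap at their adjoining ends, and the peak nearest to that junction was called in HBA, 4029 bp inside COL4A2, of fold 2.98 (q 0.33). COL4A3 and COL4A4, the paired type IV chains known from Alport syndrome, held 1 and 2 body peaks in the HBA list, and COL4A4 held 1 in the LBA list, of fold 3.74. COL15A1 had a gene-end peak of fold 2.86 (q 0.326) in the HBA list, 667 bp inside its lower-coordinate end. COL4A5 and COL4A6 lie on chromosome X and had no peak. On that chromosome all coding genes together held 25 body summits in the HBA list (0.554 per Mb) and 2 in the LBA list.

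Most body peaks of the remaining collagens lay over 1 kb from a gene end. Of the body peaks of all members, 93.0% did so in the HBA list and 92.7% in the LBA list. The share over all coding genes is not given here. COL13A1, a transmembrane collagen, held 8 body peaks in the HBA list, of fold 2.56 to 3.94, and 2 in the LBA list, of fold 2.46 and 3.33. COL22A1, a collagen of tissue junctions, held 7 in the HBA list, of fold 2.50 to 4.03, and none in the LBA list. COL23A1, another transmembrane collagen, had an LBA gene-end peak of fold 2.68 (q 1), 373 bp inside its lower-coordinate end, while its 4 HBA peaks lay in the interior. COL9A2, a cartilage collagen, had an LBA gene-end peak of fold 2.45 (q 1) and no HBA peak within 10 kb. COL26A1 had a gene-end peak of fold 2.08 (q 0.711) in the HBA list and 3 interior peaks, of fold up to 3.58. Of the 10 FACIT collagens, which sit on the surface of fibrils, 6 had a body peak in the HBA list and 3 in the LBA list, against 6.45 and 2.95 at like length. All 4 transmembrane collagens had a body peak in the HBA list and 2 had one in the LBA list, against 3.05 and 1.61. Over all 42 collagens measured, 28 had a body peak in the HBA list and 10 in the LBA list, against 27.7 and 12.9 at like length.

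**Figure D3:**
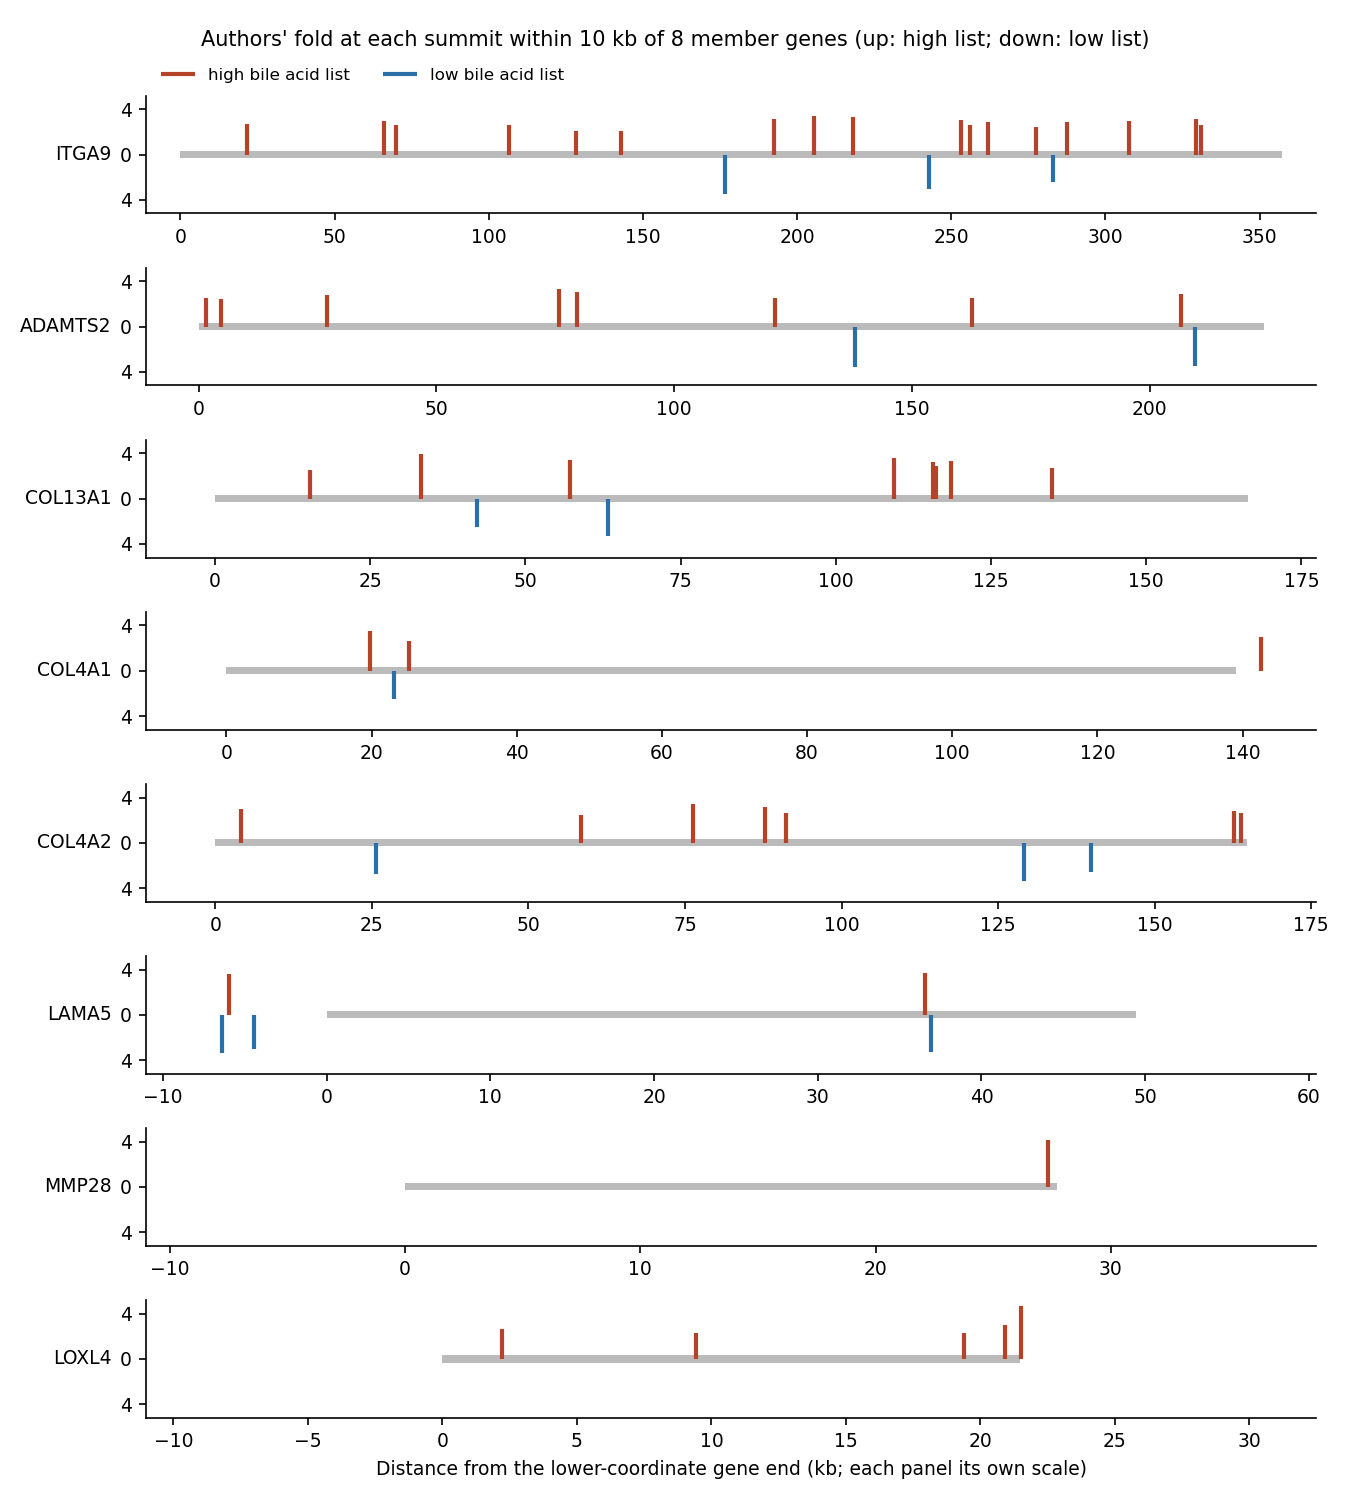
Authors' fold at each summit (bar height, up for the HBA list in red, down for the LBA list in blue) within 10 kb of 8 member genes, plotted by distance in kb from the lower-coordinate gene end, with the gene in grey. Summits of the 2 lists interleave in ITGA9, ADAMTS2, COL13A1 and COL4A2 without meeting, and lie side by side at 2 places at LAMA5.

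Laminins were called at a gene end in 4 of 12 genes in the HBA list and in none in the LBA list, against 1.87 and 0.399 at like length. LAMA2, the alpha chain of muscle laminin and the longest member at 594 kb, had 2 HBA summits at its higher-coordinate end, 390 bp inside and 328 bp beyond it, of fold 2.68 and 4.03. The stronger peak, at chromosome 1, 34359777 to 34360124, rested on 11 fragments (95% interval 5.49 to 19.7) over 1.98 expected (q 0.0735). LAMB3, a chain of the laminin of epithelial anchoring sites, had HBA summits near both ends, of fold 2.16 and 3.36, and 3 interior ones, of fold 4.01, 2.84 and 2.08. The summit of fold 3.36 lay at an end of CAMK1G as well. LAMB2 had an HBA peak 694 bp outside the gene, of fold 3.35 (q 0.139), which lay at an end of its neighbour USP19 as well. LAMC3 had the weakest gene-end peak of the members, of fold 1.91. LAMC1, which encodes the gamma chain found in most laminins, had 1 interior HBA peak of fold 3.69 (q 0.139), and LAMB1 had 1 of fold 2.68 (q 0.429), with no LBA peak at either gene. Body peaks were called in 9 laminin genes in the HBA list and in 4 in the LBA list, against 7.47 and 3.03 at like length.

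Integrins were marked in the interior in both livers. Of 25 integrin genes, 17 had a body peak in the HBA list and 10 in the LBA list, against 14.3 and 5.48 at like length. ITGA9, an alpha chain that pairs with ITGB1 and binds tenascin C, held 17 body peaks in the HBA list and 3 in the LBA list. That is 47.6 HBA summits per Mb over its 357 kb, and gave it rank 13 among all coding genes by number of body summits. Its HBA folds ran from 2.08 to 3.39, and none of its peaks had q below 0.167. The LBA folds were 3.49, 3.04 and 2.45, and no LBA peak overlapped an HBA one. ITGB5, a beta chain that pairs with ITGAV, held 7 body peaks in the HBA list and 2 in the LBA list, against means of 1.59 and 0.374 at its length.

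At gene ends, ITGAE, the alpha chain of the E-cadherin receptor of intraepithelial lymphocytes, had the strongest integrin peak. It spans chromosome 12, 49810079 to 49810518, 174 bp inside the gene at the summit, with a fold of 4.32 (q 0.0237) on 13 fragments over 2.24 expected. ITGB3, the beta chain of the vitronectin and platelet fibrinogen receptors, had a peak of fold 4.01 (q 0.0735) 75 bp beyond its gene, and ITGAV, an alpha chain with which it pairs, had one of fold 3.37 (q 0.168) 429 bp inside its gene. The collagen receptor chains ITGA1 and ITGA2, which are neighbours on chromosome 16, had gene-end peaks of fold 2.34 and 2.29 in the HBA list. The ITGA1 peak also lay at an end of PELO. ITGAL, the alpha chain of a leukocyte adhesion receptor, had the remaining LBA gene-end peak, of fold 2.75 (q 1), 473 bp inside the gene, and its HBA peaks lay elsewhere. ITGB1, the beta chain shared by most matrix-binding integrins, lacked any peak within 10 kb in both livers, as did ITGA2B, ITGA3 and ITGB7.

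**Figure D4:**
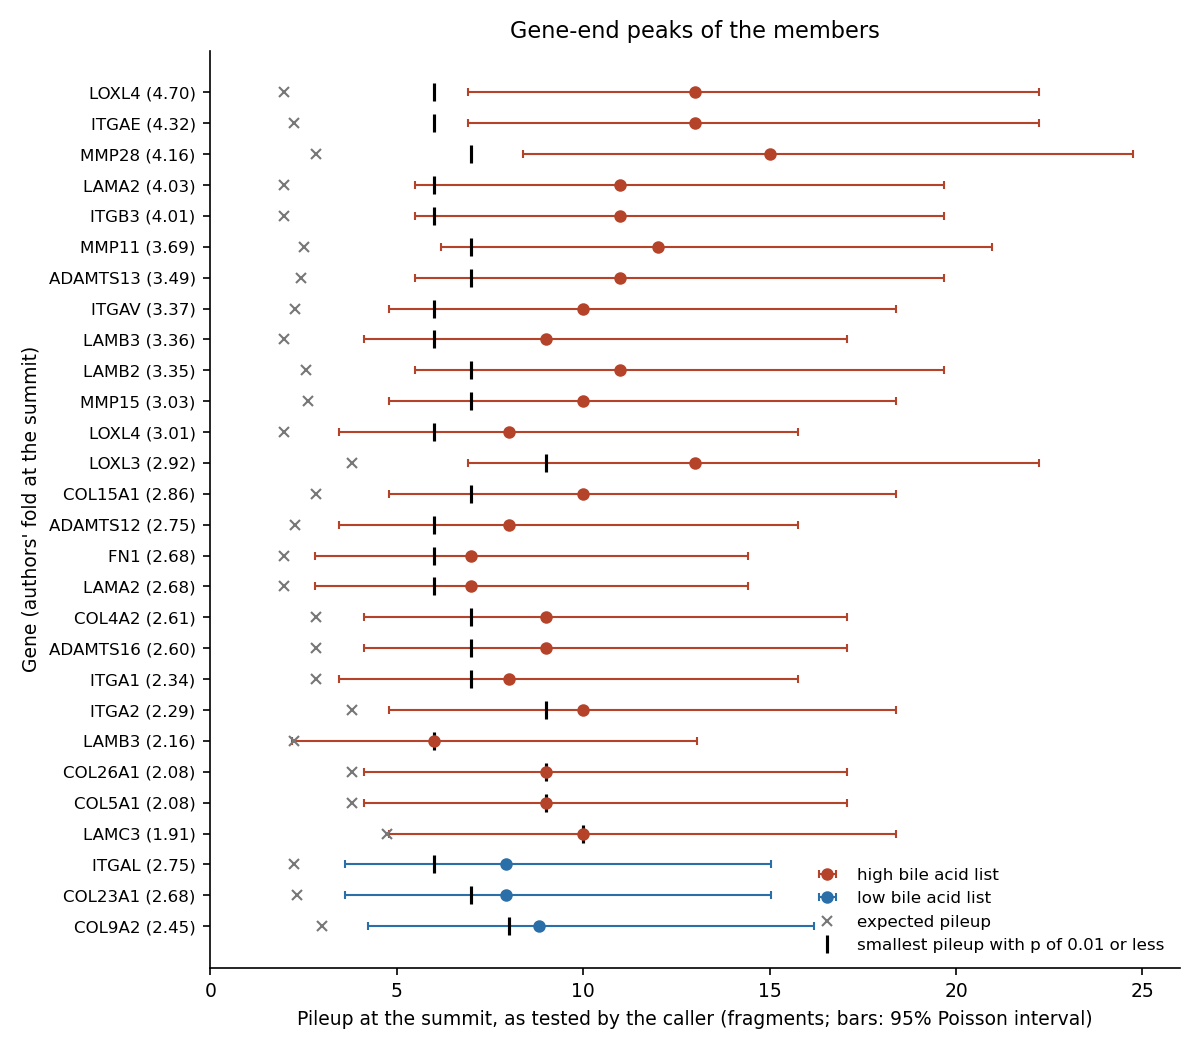
Pileup at the summit of each gene-end peak of the members (x axis, fragments as tested by the caller, with 95% Poisson intervals), ordered by the authors' fold (in brackets on the y axis), HBA list in red above LBA list in blue. Crosses give the expected pileup and black ticks the smallest pileup with p of 0.01 or less; intervals clear the tick at LOXL4, ITGAE and MMP28 and start below it in the others.

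ADAMTS proteases carried body peaks in nearly every gene in the HBA list and in few in the LBA list. All but ADAMTS10 had a body peak in the HBA list, 18 of 19 genes against 12.5 at like length, and 2 of 19 did in the LBA list, ADAMTS2 and ADAMTS12, against 6.02. ADAMTS2, which removes the amino-terminal propeptide from fibrillar procollagens, held 8 body peaks in the HBA list, of fold 2.44 to 3.35, and 2 in the LBA list, of fold 3.53 and 3.46. ADAMTS17 held 7 in the HBA list, of fold 2.60 to 3.67, and none in the LBA list. ADAMTS9, which cleaves versican, had the strongest interior peak of the family, at chromosome 13, 46174280 to 46174820, with a fold of 4.23 (q 0.0316) on 12 fragments over 2.07 expected. Gene-end peaks were called in the HBA list at ADAMTS13, the protease of von Willebrand factor, with a fold of 3.49 (q 0.139), ADAMTS12 with 2.75 and ADAMTS16 with 2.60. The ADAMTS13 peak lay at an end of its neighbour CACFD1 too. This contrast between the lists was picked out after its values were seen, and no test of it was possible. The lists hold 28283 and 5735 peaks, and the ADAMTS count in the shortened HBA list is not given here.

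Matrix metalloproteinases were called in fewer genes, and their genes are short, with a median of 13.6 kb. Body peaks were called in 8 of 19 in the HBA list and 2 in the LBA list, MMP2 and MMP25, against 7.38 and 2.01 at like length. MMP28, a secreted MMP known as epilysin, had a gene-end peak at chromosome 12, 39766310 to 39766609, 405 bp inside the gene, of fold 4.16 (q 0.0164). It rested on 15 fragments (95% interval 8.40 to 24.7) over 2.85 expected, the most of any peak at a member's gene end. MMP11, a stromelysin of stromal cells, had a gene-end peak of fold 3.69 (q 0.0743) 79 bp beyond the gene, and MMP15, a membrane-bound MMP, had one of fold 3.03 (q 0.232). A stronger HBA peak 4351 bp from MMP11, of fold 4.26 (q 0.0179), lay at an end of its neighbour CHCHD10. MMP2, a gelatinase of stellate cells and fibroblasts, had an interior peak in each list, of fold 2.56 on 7 fragments in the HBA list and 3.50 on 12 fragments in the LBA list, at 30076114 to 30076417 and 30077017 to 30077364 of chromosome 6. They lay close together and did not overlap.

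The MMP genes clustered on chromosome 9, which hold the collagenases MMP1, MMP8 and MMP13 along with MMP3, MMP7, MMP12, MMP20 and MMP27, were almost without peaks. In the 402 kb from MMP7 to MMP13 and 10 kb on either side, the HBA list had 0 summits and the LBA list had 1, of fold 3.04 between MMP27 and MMP8. At the mean density of chromosome 9, 4.67 and 0.977 would lie there. This cluster was singled out after its values were seen.

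The 4 TIMP inhibitors had no gene-end peak, against 0.697 genes in the HBA list and 0.117 in the LBA list at like length. TIMP2 and TIMP4 had 1 HBA body peak each, of fold 3.45 and 2.43, 2 genes against 1.52 at like length. TIMP3 had an HBA peak 4809 bp outside the gene, and TIMP1, on chromosome X, had none. No TIMP gene had an LBA peak within 10 kb, against 0.707 at like length. Among lysyl oxidases, LOXL4 had the strongest peak of all members, at chromosome 14, 109593283 to 109593664, with its summit 34 bp beyond the gene. Its fold was 4.70 (q 0.0106) on 13 fragments (95% interval 6.92 to 22.2) over 1.98 expected. A separate HBA summit of fold 3.01 lay 547 bp inside the same end, and 3 weaker ones lay in the interior, so that this gene of 21.5 kb held 4 body summits against a mean of 0.562 at its length. LOXL3 had an HBA gene-end peak of fold 2.92 (q 0.232), which lay at an end of DOK1 as well, and LOXL2 held 4 interior peaks in the HBA list and 1 in the LBA list. LOX itself had 1 HBA peak, 6562 bp outside the gene, of fold 2.68 (q 0.5).

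Of the glycoproteins, FN1, which encodes fibronectin, had 3 HBA peaks and no LBA peak within 10 kb. The gene-end peak, 555 bp beyond the gene, had a fold of 2.68 (q 0.5) on 7 fragments, and those inside had 2.86 and 2.39. The peak of fold 2.39 rested on 15 fragments over 5.70 expected, so that a low fold there went with a high local background. FBN1, the main fibrillin, had 1 interior HBA peak of fold 3.35, and TNC, which encodes tenascin C, had 1 interior peak in each list, of fold 2.34 in the HBA list and 2.97 in the LBA list.

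The 2 lists met at few places. Within 10 kb of the members, 5 of 286 HBA peaks (1.75%, 95% interval 0.570 to 4.03%) overlapped 5 of 57 LBA peaks (8.77%, 2.91 to 19.3%), where over the whole lists 0.732% and 3.63% did so. LAMA5, a laminin alpha chain of mature basement membranes, held 2 of the 5. Its interior peak, at chromosome 17, 61734705 to 61735143, had a fold of 3.68 (q 0.0592) on 14 fragments in the HBA list. The LBA peak over it had a fold of 3.24 on 13 fragments, at a higher q. The other overlap, outside LAMA5, lay at an end of ADRM1, with folds of 3.64 and 3.34. ITGB4, the beta chain of hemidesmosomes, had overlapping peaks of fold 2.86 and 2.70. ITGA8 had 2.34 in the HBA list and 3.04 in the LBA list, 1505 and 1318 bp inside the gene. MMP25, a membrane-anchored MMP of leukocytes, had 2.56 and 2.63. None of these overlaps lay within 1 kb of a member's end. By gene, 24 members had a body peak in both lists (18.5%), 64 in the HBA list only (49.2%) and 6 in the LBA list only (4.62%). For all coding genes, which are shorter, the shares were 10.5%, 34.1% and 4.44%. The 6 members were COL11A1, COL9A2, ITGA6, ITGA7, ITGB8 and LAMB4.

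Near members, few calls made in 1 list stood clear of the calling limit. The background floor of the caller was 1.98 fragments in the HBA library and 1.94, as tested, in the LBA library. Of the 281 HBA peaks with no overlap, 6 had an interval whose lower bound was at or above the smallest pileup with p of 0.01 or less over the same expected pileup. They lay in or beside LOXL4, ITGAE, MMP28, ADAMTS9, MMP11 and MMP14. For the LBA list, 0 of 52 did so. The same share over all peaks of each list is not given here, so these counts are not a trait of matrix genes. These 6 were picked by their own pileup, and what the LBA library held at their positions is not in the lists.

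Other matrix and adhesion genes showed much the same shares. Of 43 such genes found, 26 had a body peak in the HBA list and 8 in the LBA list, against 22.0 and 7.97 at like length, and 9 and 2 had a gene-end peak, against 6.89 and 1.40. PTK2, the focal adhesion kinase, held 9 body peaks in the HBA list and 3 in the LBA list, against means of 3.66 and 0.767 at its length. PXN, which encodes its partner paxillin, held 7 and 0, against 0.892 and 0.174. ZYX, which encodes zyxin, had an HBA gene-end peak of fold 3.69 (q 0.0743), and VTN, which encodes vitronectin, had one of fold 3.55 (q 0.139). THBS1 had a gene-end peak in each list, of fold 2.60 in the HBA list and 2.53 in the LBA list. ELN, which encodes elastin, held 4 body peaks in the HBA list and none in the LBA list, against means of 0.656 and 0.117. SPARC, SERPINH1 and PCOLCE, which serve collagen assembly, lacked any peak within 10 kb in both livers, as did P4HA1 and PLOD3. Other collagen-processing genes of this list had HBA body peaks: 4 in P4HA2, 2 each in P4HA3 and PLOD1, and 1 each in P4HB and PLOD2. Coding genes of like length averaged 1.59 HBA body summits for P4HA2 and PLOD2, 0.892 for P4HA3, 0.656 for PLOD1 and 0.372 for P4HB. BMP1 had 1 peak within 10 kb in each list.

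Markers of liver cell types were counted in the same way. Of 10 stellate and fibroblast markers, 0 had a gene-end peak in either list, against 1.73 in the HBA list and 0.320 in the LBA list at like length. Body peaks were called at PDGFRB and THY1 in the HBA list and at ACTA2 and PDGFRB in the LBA list, against 3.76 and 0.930. Of 9 endothelial markers, 6 had a body peak in the HBA list and 2 in the LBA list, against 4.82 and 1.89. At gene ends, 1 did in the HBA list, CDH5, and 0 in the LBA list, against 1.42 and 0.283. Hepatocyte markers, the labelled cell type, had a gene-end peak in the HBA list at CYP7A1 and TTR, 2 of 10 against 1.69. None had one in the LBA list, against 0.317. Hepatocyte markers with a body peak numbered 5 in the HBA list and 1 in the LBA list, against 4.18 and 1.18, and ALB had no peak within 10 kb. Kupffer markers had body peaks in 1 of 6 genes in each list, MARCO in HBA and AIF1 in LBA, against 2.33 and 0.587. Their gene-end peaks were in 0 genes in HBA and 1 in LBA, AIF1, against 0.994 and 0.186. Cholangiocyte markers had body peaks in 1 of 5 in each, SCTR in HBA and KRT19 in LBA, against 2.14 and 0.773. Gene-end peaks were in 1 of these genes in HBA, SCTR, and 0 in LBA, against 0.826 and 0.148. The part of cell composition in the results above was not tested.

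In all, 21 members lacked any peak within 10 kb in both livers. They included COL6A6, COL8A2, COL10A1 and MMP16. The 21 were 16.2% of members, against 32.1% of all coding genes, which are shorter.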

How the data were processed

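Per the submitters' processing notes, reads passed through software that included MACS2 2.1.0, Bowtie 1.1.2, Trimmomatic 0.33 and bcl2fastq 2.17, with the builds Sscrofa11.1 and hg38. Pig coordinates were used throughout, since the lists name chromosomes 1 to 18, X and Y. The sources used here do not give a calling threshold. No deposited p-value exceeded 0.00989 in the HBA list or in the LBA list. The deposited values are the fold (a ratio at the summit), the −log10 p-value and q-value, and a score, the last a display value that was not used. Peaks were called separately for the 2 livers, and the part of each input library in the expected pileup was not examined.

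Fragments and expected pileup were solved for each peak from fold and p, with the LBA library's pileup multiplied by 0.881 as recovered from the list. All but 1 peak in each list gave whole fragments within 0.002 in −log10 p. The median summit held 9 fragments for HBA and 10 for LBA. Total read numbers are not in the lists. The solver and the assignment of peaks were tested on simulated data. Shares carry exact Clopper-Pearson 95% intervals. All intervals cover counting error only.

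Members and lists were chosen with earlier results of these data known. Named genes were 12 fixed ones, the 3 highest gene-end folds per role in the HBA list, every LBA gene-end member, members with overlapping peaks or q under 0.05, and the 5 with most HBA body peaks, 43 genes in all. Others were named after their values were seen. Of 44 other matrix genes listed, CCN2 was not matched, and KRT7 was not matched among the cholangiocyte markers. Sequences, strand and motifs were not used here. Analyses used Python 3.11.15, numpy 2.4.6, pandas 2.3.3 and scipy 1.17.1.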

Additional observations from a re-analysis of the deposited data

How the results depend on the processing

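No paired analysis was possible because neither group has more than 1 immunoprecipitated library. Start-site windows and promoter motifs were not run, since no strand or sequence was used. Numbers of members are given as gene end, body and within 10 kb, and in brackets those for coding genes of like length. At a fold of 4 or more they were 5, 7 and 11 in the HBA list (1.12, 5.87 and 7.86) and 0, 0 and 0 in the LBA list (0.161, 0.493 and 0.645). At q under 0.05 they were 3, 3 and 5 in the HBA list (0.866, 3.94 and 5.48) and 0, 0 and 0 in the LBA list (0, 0.0436 and 0.0638). With HBA peaks limited to the 5735 smallest p, as many as in the LBA list, they were 9, 35 and 44 in the HBA list (5.72, 30.5 and 38.5), against 3, 30 and 41 in the LBA list (4.13, 31.9 and 39.3). At p of 0.001 or smaller they were 16, 79 and 92 in the HBA list (15.9, 66.2 and 81.0). In the LBA list they were 0, 22 and 26 at that p (2.55, 21.4 and 26.6). A gene-end window of 3 kb gave 38 in the HBA list (37.0) and 9 in the LBA list (8.35), and 0.5 kb gave 14 in the HBA list (11.2). With 50 kb beyond the gene, 113 members had an HBA peak (113.2) and 63 had an LBA peak (59.8). Shared peaks numbered 3 when at least 50% of either peak had to overlap. The share of members with a body peak minus that of all coding genes was 23.2 points in the HBA list and 8.18 in the LBA list, and minus that of genes of like length 9.26 and -1.48. Peaks assigned by any overlap gave the same numbers of members, 22, 88 and 101 in the HBA list (22.4, 76.6 and 91.6). The background at gene ends did move, from 16.5% to 18.4% of all coding genes in the HBA list. The 22 members with a gene-end peak were then slightly fewer than at like length. Folds of single peaks are deposited values, so they were not retested, and a gene-end window of 3 kb brought in a stronger HBA peak at ITGA1 (3.12), LOXL3 (3.69) and COL4A2 (2.85). Peaks near members rested on 6 to 15 fragments, and total read numbers are not in the lists.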
